A study of Homo sapiens with 6 samples.

Results

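The AP-1 family was examined in SW872, an established human liposarcoma cell line, through 10 genes chosen by their symbols from the 57773 genes of the count table. The 10 genes are FOS, FOSB, FOSL1 and FOSL2 of the FOS family, JUN, JUNB and JUND of the JUN family, and the related factors ATF3, BATF3 and MAFF. All 10 passed the filter on low counts, which left 16290 genes (28.2%) for testing. Apatinib is a small molecule inhibitor of the receptor tyrosine kinase VEGFR-2. RNA was sequenced from 3 replicates given 18 μM Apatinib for 24 h and from 3 control replicates, which the study's methods call biological. These groups are called the Apatinib group and the control group. Whether the control cells received the solvent of the drug is not given in the sources used here. Every library came from this 1 cell line, so the error describes the spread between replicates of SW872 and not between tumors.

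AP-1 is a transcription factor made of 2 proteins of the basic leucine zipper (bZIP) class, in which the basic region touches DNA and the zipper joins the partners. FOS proteins bind DNA together with a JUN protein, whereas JUN proteins can also pair with each other. FOS and FOSB are immediate early genes: growth factor and stress signals switch them on within minutes through MAP kinases, and their transcripts are then rapidly degraded. The dimers act on genes of proliferation, invasion and matrix turnover, and JUN is amplified in some dedifferentiated liposarcomas.

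The libraries held 17043314 to 22067558 counts. Control replicates 1 and 2 stood apart by their likeness, since the chi-square between their counts averaged 2.27 per gene, where sampling noise gives 1 and the other pairs within a group gave 18.2 to 44.5. They were kept as separate samples, and for the AP-1 genes and the called genes of the lists around them, changes of a call when they were summed as 1 sample are given beside it. The calls of marker genes were not compared in that setting. Of the markers of the line, 5 mesenchymal genes summed to 4090 to 4210 CPM (counts corrected for library size) in the control group and 4940 to 5770 CPM in the Apatinib group. The 5 adipocyte markers summed to 61.4 to 63.0 and 65.4 to 89.4 CPM, mostly from PPARG. Of these, FABP4 and ADIPOQ had 0 counts in every library, LPL was called higher (0.84 in log2, FDR = 0.0237 by edgeR) and PLIN1 was at 0.60 without a call (FDR = 0.225 by edgeR). The 5 epithelial markers summed to 93.3 to 109 CPM in the control group and 124 to 156 CPM in the Apatinib group, mostly from KRT18 and KRT8, of which KRT8 was called higher (0.71, FDR = 0.0166 by edgeR), while EPCAM and CDH1 stayed below 1 CPM. The 5 immune markers summed to 4.5 to 5.44 and 2.75 to 4.01 CPM, with PTPRC at 0. CD68 among them had at most 1 count in the count table but 1.79 to 3.30 FPKM in the control group and 6.78 to 11.8 FPKM in the Apatinib group, so the deposited files disagree on this gene. The 4 endothelial markers found in the table summed to 13.9 to 16.2 and 15.2 to 17.4 CPM, mostly from TEK. Of these, CDH5 was called lower (-1.22 in log2, FDR = 0.0242 by edgeR) and VWF higher (1.52, FDR = 0.0386 by edgeR). KDR, the gene of VEGFR-2, had 4 to 11 counts in each library, too few to be tested. The part of these marker shifts in the results was not tested. In RNA of a whole culture, a change in every cell and a change in the number of cells that express a gene cannot be told apart.

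Apatinib raised 4 of the 10 AP-1 genes, namely FOS, FOSB, FOSL1 and JUND. A gene was called when its false discovery rate (FDR) was under 0.05 and its log2 fold change was above 0.5 in size, where the FDR was adjusted by the Benjamini-Hochberg method over every gene in edgeR's quasi-likelihood fit. Of all genes tested, 5.97% were called higher with Apatinib and 5.48% were called lower. None of the 10 was called lower by edgeR or by DESeq2, and at an unadjusted p under 0.05, 5 were higher and 0 lower, against 15.3% of all genes tested in each direction. All 10 log2 fold changes were above 0, with a median of 0.75, while the median over all genes tested was 0.0028. Without Apatinib replicate 2 the median of the 10 was 0.32, and ATF3 was below 0 (-0.26). In FOS, FOSB, FOSL1, JUN and JUND (5 of the 10), every Apatinib library lay above every control library in CPM, as in 17.5% of all genes tested. In either direction, 11.5% of all genes tested were called and 33.2% did not overlap.

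How many members were called depended on the libraries and on the fit. The count of 4 fell to 3 when control replicates 1 and 2 were summed, a setting in which 1.75% of all genes were called in either direction. It was 2 without control replicate 1 (1.65% of all genes) and 3 without control replicate 2 (1.8%). It was 4 without control replicate 3 (15.5%), without Apatinib replicate 1 (4.73%) and without Apatinib replicate 2 (8.91%), and 6 without Apatinib replicate 3 (12.1%). DESeq2 called 5 members (13.8% of all genes), and a fit without the filter on low counts called 7 (7.85%). That fit gave ATF3 an FDR of 1.31e-05 by edgeR, against 0.216 with the filter, although only Apatinib replicate 2 lay above every control. The glmTreat test, for changes beyond 0.5 in log2, called 2 (0.454%). On the FPKM values, limma called 4 members with a pseudocount of 1 (5.03%) and 4 with 0.1 (5.12%).

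**Figure D1:**
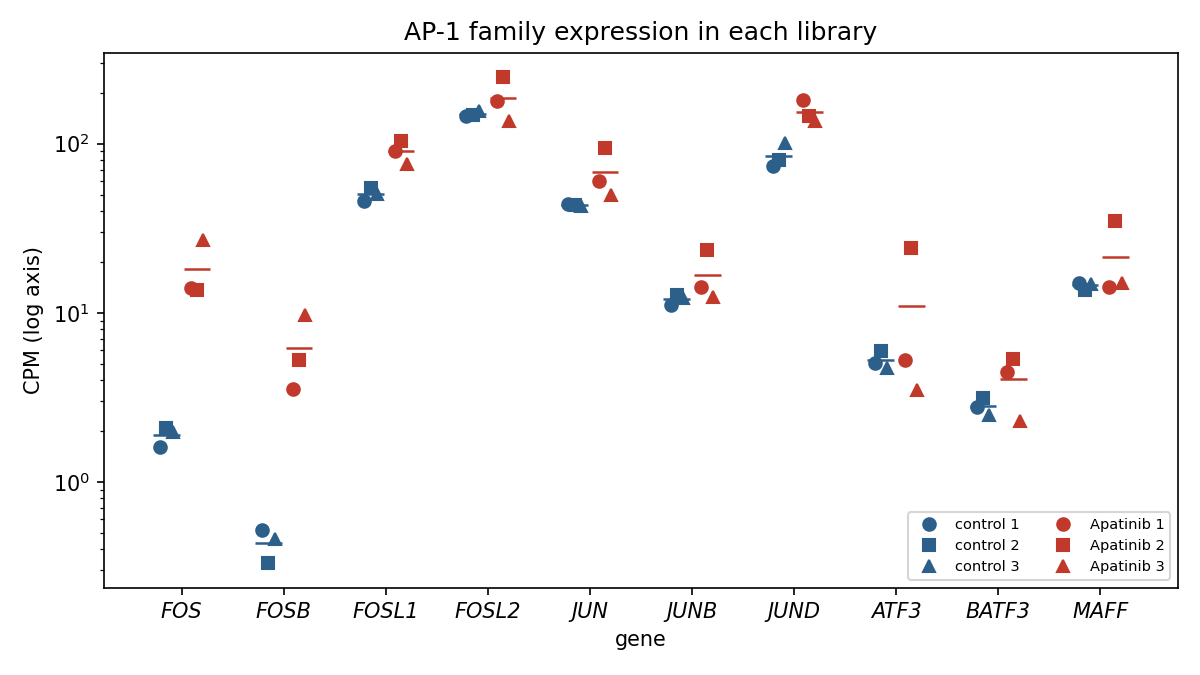
Expression of the 10 AP-1 genes in each of the 6 libraries, in CPM on a log axis, with 1 symbol per library and a short line at each group mean. FOS (13.7 to 26.8 CPM) and FOSB (3.55 to 9.73 CPM) lie above every control in all 3 Apatinib libraries, whereas ATF3 and MAFF lie well above the controls in Apatinib replicate 2 alone.

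Because the promoters of the early genes are where MAP kinase and cAMP signals act, the windows of FOS, FOSB and JUND, which were called, and of JUN, the partner of FOS, are shown. Each window is the 250 bases before the start of the gene in RefSeq, on build GRCh38.p14, written 5′ to 3′ along the gene. FOS lies on the plus strand at chr14:75278578-75278827, FOSB on the plus strand at chr19:45467746-45467995, JUN on the minus strand at chr1:58784048-58784297 and JUND on the minus strand at chr19:18281623-18281872. Capitals mark TGACG, the core of the cAMP response element, or its reverse complement CGTCA.
FOS: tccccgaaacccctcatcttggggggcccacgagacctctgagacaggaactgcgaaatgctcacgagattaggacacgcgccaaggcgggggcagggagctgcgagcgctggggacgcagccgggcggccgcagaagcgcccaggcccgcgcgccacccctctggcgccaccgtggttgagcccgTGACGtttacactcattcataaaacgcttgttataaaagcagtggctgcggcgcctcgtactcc
FOSB: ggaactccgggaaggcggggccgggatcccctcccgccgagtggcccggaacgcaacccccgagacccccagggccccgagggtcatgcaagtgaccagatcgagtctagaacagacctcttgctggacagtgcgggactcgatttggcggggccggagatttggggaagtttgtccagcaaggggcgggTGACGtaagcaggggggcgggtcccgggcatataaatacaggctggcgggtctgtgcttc
JUN: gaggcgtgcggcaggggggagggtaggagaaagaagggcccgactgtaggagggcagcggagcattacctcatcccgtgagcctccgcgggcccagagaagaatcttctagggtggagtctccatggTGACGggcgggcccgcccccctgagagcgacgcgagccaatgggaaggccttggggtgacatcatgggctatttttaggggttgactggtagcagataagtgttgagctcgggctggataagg
JUND: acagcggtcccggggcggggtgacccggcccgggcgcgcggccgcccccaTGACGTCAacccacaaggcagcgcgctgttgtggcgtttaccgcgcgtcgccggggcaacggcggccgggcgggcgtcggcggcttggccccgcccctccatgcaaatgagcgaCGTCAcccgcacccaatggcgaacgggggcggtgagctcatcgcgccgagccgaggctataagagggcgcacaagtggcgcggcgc

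The core TGACG was searched on both strands in these windows. In FOS it stood at positions -64 to -60 before the start, and in FOSB at nearly the same place, -60 to -56. JUN held it at -123 to -119. JUND held the full element TGACGTCA at -200 to -193, which contains the core on both strands, and a further core at -86 to -82. Windows were given for 8 of the 10 genes, and FOSL1 and BATF3 have none here. These 8 genes have 10 windows, since ATF3 and MAFF have 2 each. The core was found in 7 of the 10 windows, which belong to all of these genes but ATF3, and in 21.2% of the 35116 RefSeq windows of the same length. The full element TGACGTCA, which overlaps the core, was found in 2 of the 10 windows, of JUND and MAFF, and in 1.65% of all windows. TGANTCA, the common form of the AP-1 element, was in 0 of the 10 windows and in 6.57% of all windows. Longer forms, such as the TGACATCA that the printed JUN window holds, were not searched. The CArG box, the element of serum response factor, was in 0 of the 10 and in 1.16%. A match describes the letters of a window and is no measurement of binding, and the absence of a match says only that these letters are not in these 250 bases.

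FOS (ENSG00000170345), the founding FOS protein, was scarce in the control group and clearly expressed in every Apatinib library. Its expression was 1.62, 2.09 and 1.97 CPM in control replicates 1 to 3 and 14, 13.7 and 26.8 CPM in Apatinib replicates 1 to 3. The lowest Apatinib library was 6.54 times the highest control library, and Apatinib replicate 3 was the highest. FOS rose by 3.25 on the log2 scale (standard error, SE, 0.292; 95% interval 2.61 to 3.89, FDR = 0.000315 by edgeR). FOS stayed called without any 1 library, with log2 fold changes of 2.86 to 3.43, and with control replicates 1 and 2 summed (3.24, FDR = 0.00214, over a range of 1.02e-43 to 0.0044 in the 9 other fits).

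FOSB (ENSG00000125740), a close relative of FOS with a similar early response, was near the limit of detection in the control group. It had 9, 6 and 10 counts in control replicates 1 to 3 and 61, 93 and 170 counts in Apatinib replicates 1 to 3. Scaled to library size these were 0.520, 0.330 and 0.458 CPM against 3.55, 5.25 and 9.73 CPM. The groups did not overlap, and again Apatinib replicate 3 was the highest of the 6 libraries. FOSB rose by 3.80 on the log2 scale (SE 0.426, 95% interval 2.87 to 4.74, FDR = 0.00148 by edgeR). It was 3.32 to 4.08 when any 1 library was left out, and FOSB was called each time. On the scale of log2(FPKM + 1), which compresses low values, the change was 1.05.

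FOSL1 (ENSG00000175592), also known as FRA-1, is a FOS relative without the strong activation domain of FOS that is often sustained in invasive tumor cells. Its expression was 45.8, 54.3 and 50.6 CPM in the controls and 90.2, 104 and 76.1 CPM with Apatinib, so every Apatinib library was at least 1.40 times the highest control. The rise in log2 was 0.84 (SE 0.141, 95% interval 0.53 to 1.15, FDR = 0.00709 by edgeR). FOSL1 lost its call without control replicate 1 (0.77, FDR = 0.0523, in a range of 0.00477 to 0.0523 over the 6 libraries left out in turn) and with glmTreat (FDR = 0.177, in a range of 1.71e-06 to 0.177 over the 9 other fits).

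FOSL2 (ENSG00000075426), or FRA-2, did not separate the groups. It was at 145, 147 and 157 CPM in the controls and 179, 247 and 136 CPM with Apatinib. Apatinib replicate 2 was high and Apatinib replicate 3 was below all controls. On the log2 scale the difference was 0.32 with a 95% interval of -0.08 to 0.72, and FOSL2 did not pass the test (FDR = 0.254 by edgeR). Leaving out Apatinib replicate 2 brought the value to 0.08.

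JUN (ENSG00000177606), the main partner of FOS, lay just outside the call. It was at 43.9, 43.2 and 42.6 CPM in the controls and at 60.1, 93.8 and 50.0 CPM with Apatinib. The controls hardly varied, and the lowest Apatinib library was 1.14 times the highest control. In log2 the difference was 0.65 (SE 0.197, 95% interval 0.22 to 1.08), and the edgeR FDR was 0.0506. DESeq2 gave 0.66 with FDR = 0.0116 and called JUN, and 2 further fits of 9 called it, with FDR from 0.000531 to 0.701 over all of them. The value rested in part on Apatinib replicate 2: without it the log2 fold change was 0.35, and without Apatinib replicate 3 it was 0.83 (FDR = 0.022, in a range of 0.022 to 0.158 over the libraries left out).

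JUNB (ENSG00000171223), a JUN protein that can restrain JUN, followed the same order of libraries. Its expression was 11.1, 12.7 and 12.2 CPM in the controls and 14.3, 23.7 and 12.4 CPM with Apatinib. Apatinib replicate 3 was within the range of the controls. JUNB differed by 0.48 in log2 with a 95% interval of -0.01 to 0.97 (FDR = 0.169 by edgeR) and fell to 0.15 without Apatinib replicate 2. JUNB shares 259 bases of exon with HOOK2 on the opposite strand in GENCODE 29, and since the strand setting of the counting is not given in the sources used here, its counts are uncertain.

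JUND (ENSG00000130522), the JUN protein that resting cells keep at a steady level, was the JUN gene that passed the test. It was at 73.7, 79.6 and 100.3 CPM in the controls and at 181, 145 and 137 CPM with Apatinib. Here Apatinib replicate 1 was the highest, unlike in JUN and JUNB, and the lowest Apatinib library was 1.37 times the highest control. JUND rose by 0.87 on the log2 scale (SE 0.153, 95% interval 0.53 to 1.2, FDR = 0.00845 by edgeR). The call was lost narrowly with control replicates 1 and 2 summed (0.80, FDR = 0.0528, in a range of 3.86e-07 to 0.179 over the 9 other fits), without control replicate 1 (0.77, FDR = 0.0564) and without control replicate 2 (0.82, FDR = 0.0508, in a range of 0.00158 to 0.0564 over the libraries left out).

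ATF3 (ENSG00000162772), a stress-induced factor that dimerizes with JUN proteins, was far above the controls in 1 Apatinib library and below them in another. Its expression was 5.08, 5.94 and 4.72 CPM in the controls and 5.24, 24.1 and 3.49 CPM with Apatinib. Apatinib replicate 2 was 5.52 times the mean of the other Apatinib libraries, of which 1 lay among the controls and 1 below them. The log2 fold change was 1.06 with a standard error of 0.551 and a 95% interval of -0.14 to 2.27 (FDR = 0.216 by edgeR). Without Apatinib replicate 2 it turned negative, at -0.26 (FDR = 0.457, in a range of 0.0698 to 0.457 over the libraries left out).

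MAFF (ENSG00000185022), a small MAF protein that lacks an activation domain, showed the same kind of pattern. It was at 15.1, 13.7 and 14.9 CPM in the controls and at 14.3, 34.8 and 14.9 CPM with Apatinib. Apatinib replicates 1 and 3 were within the control range, and replicate 2 was 2.38 times their mean. The log2 fold change of 0.55 (95% interval -0.08 to 1.19, FDR = 0.223 by edgeR) became 0.01 without Apatinib replicate 2.

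BATF3 (ENSG00000123685), a short bZIP protein that pairs with JUN and is known for its role in dendritic cells, overlapped between the groups. It was at 2.77, 3.13 and 2.47 CPM in the controls and at 4.48, 5.36 and 2.29 CPM with Apatinib. Apatinib replicates 1 and 2 lay above all controls and replicate 3 below them. BATF3 differed by 0.54 in log2 (95% interval -0.11 to 1.18, FDR = 0.245 by edgeR). Without Apatinib replicate 3 it was 0.82 and BATF3 was called (FDR = 0.0488, in a range of 0.0488 to 0.543 over the libraries left out).

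**Figure D2:**
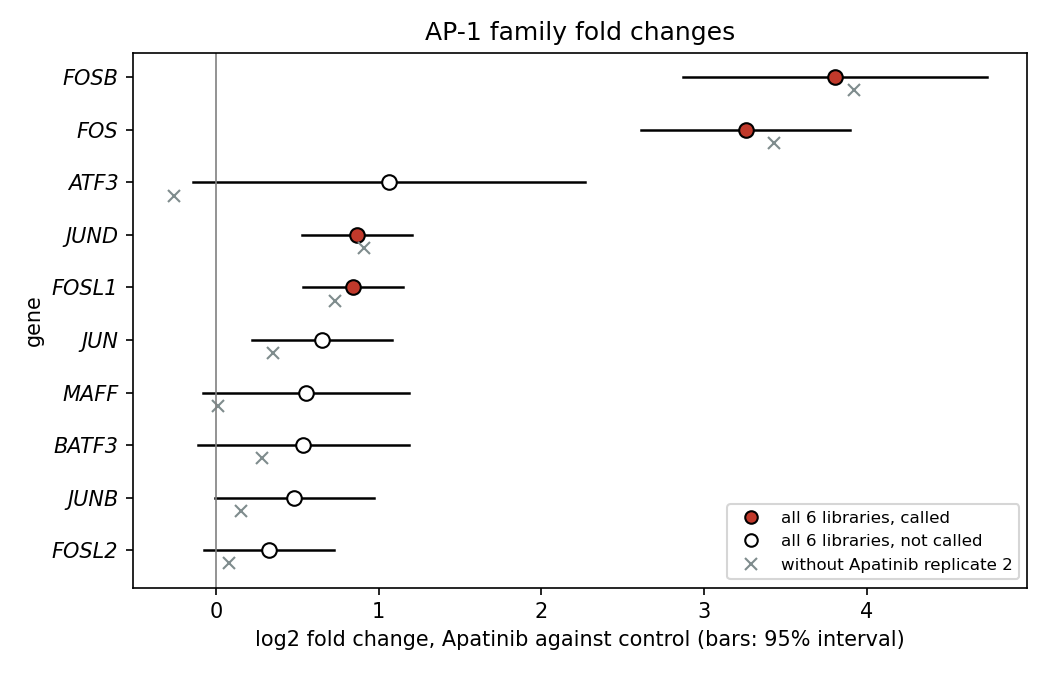
Log2 fold change of the 10 AP-1 genes, Apatinib against control, as circles with 95% intervals, filled where the gene was called, and crosses for the value without Apatinib replicate 2. FOSB (3.80) and FOS (3.25) stand far to the right with and without that library, and ATF3 moves from 1.06 to -0.26.

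The members thus fell into different patterns across the 3 Apatinib libraries. FOS and FOSB were highest in Apatinib replicate 3, at 3.76 and 4.19 above the control mean in log2 CPM, and in replicate 2 they were at 2.79 and 3.31. ATF3 was at -0.57 in replicate 3 and 2.18 in replicate 2. In 7 of the 10 members (FOSL1, FOSL2, JUN, JUNB, ATF3, BATF3 and MAFF), Apatinib replicate 2 was the highest of its group, as in 35.9% of all genes tested. Replicate 3 was highest in 2 of the 10 against 28.6% of all genes, and replicate 1 in 1 of the 10 against 35.6%. Over the 6 libraries, which all members share, the correlation of log2 CPM was 0.98 between FOS and FOSB, 0.96 between JUN and JUNB and 0.94 between ATF3 and MAFF, but 0.17 between FOS and ATF3. These correlations describe 6 libraries in 2 groups and include the difference between the groups.

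**Figure D3:**
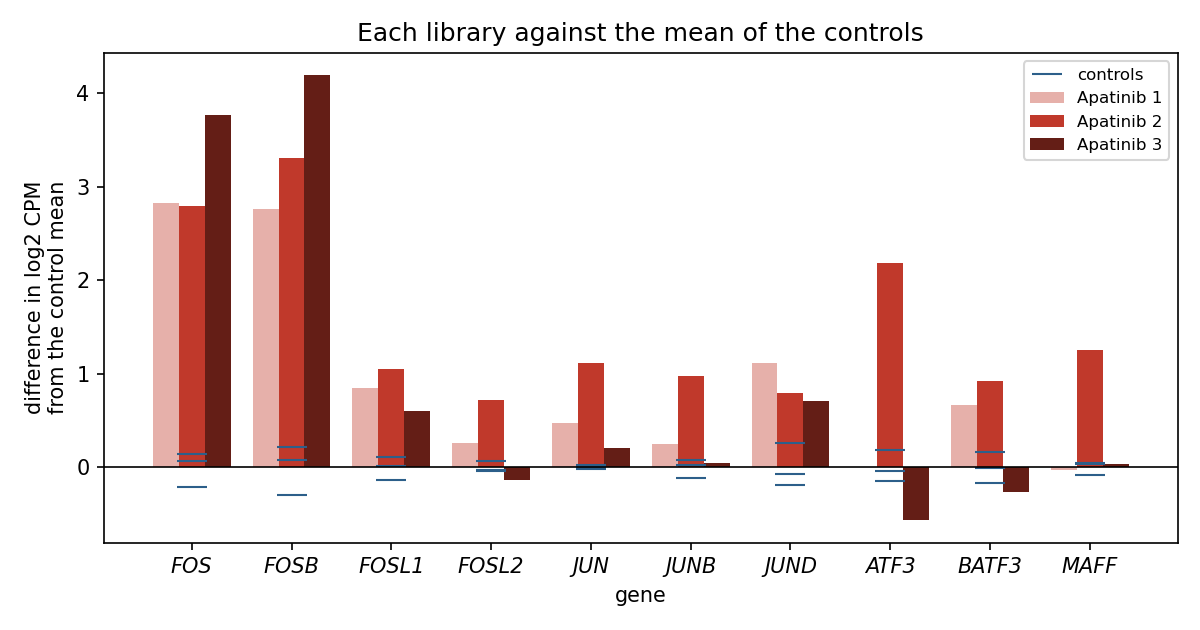
Difference of each Apatinib library from the mean of the controls in log2 CPM, as bars from 0 for the 10 AP-1 genes, with thin lines for the 3 controls. FOS and FOSB have their tallest bar in Apatinib replicate 3 (3.76 and 4.19), and ATF3 has a tall bar in Apatinib replicate 2 (2.18) only.

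The spread within the Apatinib group was wider than within the control group for 9 of the 10 genes, all but JUND. The share of all genes with a wider spread was not computed, so this is not shown to be particular to AP-1 genes. Over all genes the chi-square averaged 18.2 to 44.5 between Apatinib libraries and 2.27 to 22.9 between controls. The coefficient of variation of CPM was 33.7% for JUN with Apatinib and 1.54% in the controls, 54.7% and 5.14% for MAFF, and 104% and 12% for ATF3. For FOS it was 41.5% and 13.0%, so the size of its rise differed between libraries although its direction did not. JUND had 15.2% and 16.5%. Control replicates 1 and 2 were unusually alike, and the part of this in the control spread was not tested.

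Levels of different genes were compared in FPKM, the deposited value per transcript length. In the control group JUND was the highest at 31.0 ± 4.55 FPKM (SD, n = 3), followed by FOSL1 at 22.6 ± 1.66, FOSL2 at 15.7 ± 0.176, JUN at 8.89 ± 0.378 and JUNB at 6.88 ± 0.137. MAFF at 4.17 ± 0.226, ATF3 at 1.84 ± 0.286, BATF3 at 1.48 ± 0.057, FOS at 0.775 ± 0.273 and FOSB at 0.0885 ± 0.0197 FPKM came after them. No neighbors in this order overlapped between libraries. In the Apatinib group JUND at 57.0 ± 6.71 and FOSL1 at 40.5 ± 5.63 FPKM remained in front without overlap with their neighbors. From FOSL2 at 19.6 ± 6.22 down to FOSB at 1.32 ± 0.66 FPKM, each gene overlapped the next. FOS moved from rank 9 to rank 6, at 6.94 ± 2.46 FPKM.

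Summed over its 4 genes, the FOS family reached 37.8, 41.1 and 38.5 FPKM in the controls and 62.8, 80.2 and 62.4 FPKM with Apatinib, a ratio of means of 1.75. The 3 JUN genes summed to 43.6, 45 and 51.6 FPKM in the controls and 85.0, 90.2 and 69.3 FPKM with Apatinib, a ratio of 1.74. In both families the lowest Apatinib sum was above the highest control sum. Within the FOS family, the share of FOS went from 1.96% ± 0.594 (SD, n = 3) to 10.5% ± 4.62 and that of FOSB from 0.228% ± 0.0585 to 1.96% ± 1.12. The share of FOSL1 was 57.6% ± 1.64 in the control and 59.3% ± 1.92 with Apatinib, and that of FOSL2 was 40.2% ± 2.16 and 28.3% ± 4.97. FOSL1 was thus the most abundant FOS family transcript in both groups, although FOS and FOSB had the larger fold changes. Within the JUN family, JUND held 66.1% ± 3.51 in the control and 70.4% ± 7.76 with Apatinib, with overlap between the groups.

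**Figure D4:**
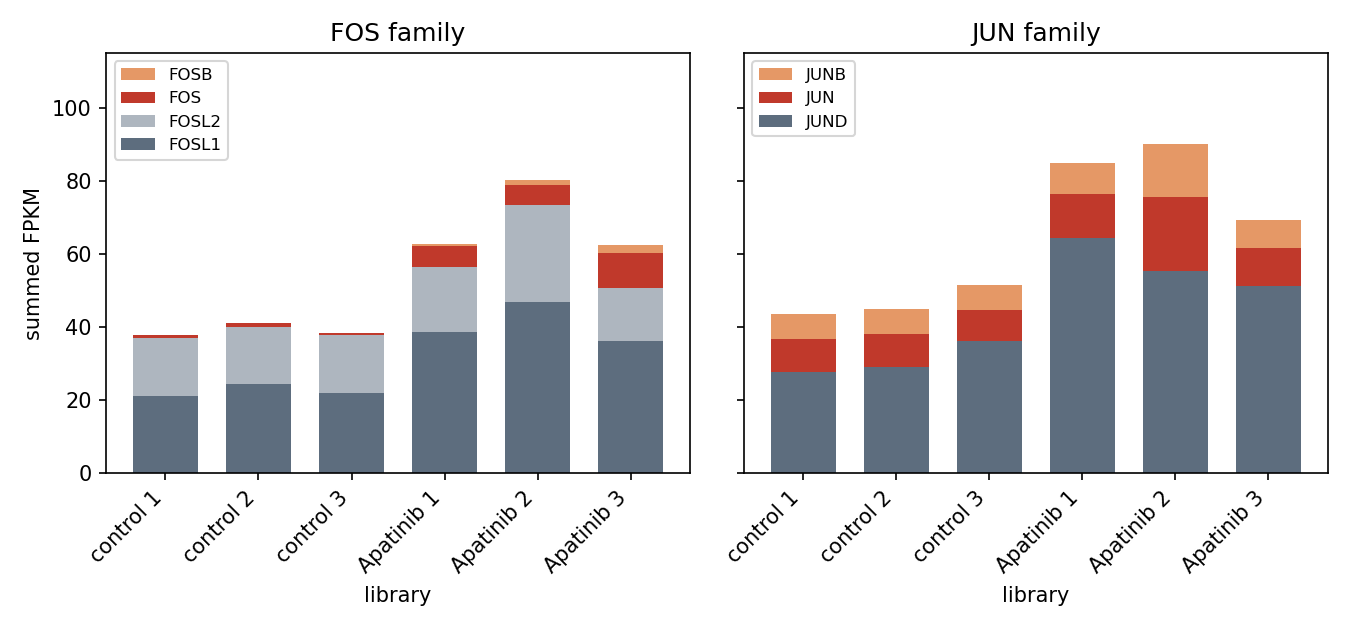
Summed FPKM of the FOS family (left) and the JUN family (right) in each library, with bars from 0 divided by gene. FOSL1 and JUND make up most of every bar, and FOS is hardly visible in the controls and holds a mean share of 10.5% of the FOS family sum with Apatinib.

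The genes of the family also share features of structure in GENCODE 29. JUN, JUNB and JUND have 1 exon each, as do 5.94% of 19549 protein-coding genes. The pentamer ATTTA, a part of the AU-rich elements that shorten the life of early transcripts, occurs in the 3′ UTR of all 10 members, against 62.3% of the genes. It occurs at least 3 times in 6 of the 10 (FOS, FOSB, FOSL2, JUN, ATF3 and MAFF), against 36.1% of the genes. FOS has 5 copies in 806 bases of 3′ UTR and FOSL2 has 9 in 4864 bases, whereas FOSL1 and JUND, which were called, have 1 each. These counts compare single transcripts of different UTR length and measure no decay.

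Other bZIP genes that can join AP-1 dimers were described from a list of 12, of which 10 were tested, and BATF and MAFA had too few counts. JDP2, a repressor that pairs with JUN, was called higher, and none of the list was called lower. Its expression was 14.9, 13.4 and 13.5 CPM in the controls and 38.0, 50.5 and 25.9 CPM with Apatinib, without overlap. JDP2 thus rose by 1.45 on the log2 scale (SE 0.211, FDR = 0.00441 by edgeR), and it stayed called without any 1 library (1.2 to 1.67). MAF, a large MAF protein, was higher in every Apatinib library at 0.51 in log2 but was not called (FDR = 0.0632 by edgeR), and neither was the small MAF protein MAFK at 0.43 (FDR = 0.0739 by edgeR), whose groups did not overlap either. ATF2, a JUN partner at cAMP response elements, had a value of -0.50 (FDR = 0.0824 by edgeR). Without Apatinib replicate 2, and also without control replicate 3, 1 gene of the list was called lower beside JDP2. The median of the 10 tested genes was 0.07, and 3 were higher and 2 lower at an unadjusted p under 0.05, where 15.3% of all genes were found in each direction. The 1 call of 10 is 10% of the list, no more than the 11.5% called among all genes.

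The kinases and factors upstream of AP-1 (27 genes of the ERK, JNK, p38 and ERK5 routes, the ternary complex factors and the ubiquitin ligases of JUN) were all tested, and none was called by edgeR or DESeq2. At an unadjusted p under 0.05, the list had 4 of its 27 genes higher and 2 lower, against 15.3% of all genes in each direction, and its median in log2 was 0.02. The smallest p was that of SRF, the serum response factor that drives FOS transcription. SRF was at 41.6, 41.7 and 50.3 CPM in the controls and at 63.6, 57.2 and 58.3 CPM with Apatinib, a difference of 0.42 in log2 (FDR = 0.0502 by edgeR). FBXW7, a ligase subunit that marks JUN for degradation, had a value of -0.45 (FDR = 0.0892 by edgeR), and ELK4, a ternary complex factor, -0.40 (FDR = 0.0924 by edgeR). Without control replicate 3, 3 of the 27 genes were called, 1 higher and 2 lower, in a setting where 15.5% of all genes were called. These are transcript levels, and the phosphorylation through which the kinases act was not measured by this assay.

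Genes described as AP-1 targets (23 listed) moved in part. Of the 18 tested, 4 were called higher, IL11, CCND1 and HMOX1 among them, and MMP9 was called lower, which is 27.8% against 11.5% of all genes called in either direction, and the median log2 fold change was 0.28. MMP3, MMP10, MMP13, IL6 and GJA1 had too few counts to be tested. In all, 1 target was called with control replicates 1 and 2 summed (1.75% of all genes called), without control replicate 1 (1.65%) and without control replicate 2 (1.8%), and 7 were called without Apatinib replicate 3 (12.1%).

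CCND1, the cyclin D1 of the G1 phase, was at 338, 357 and 343 CPM in the controls and at 544, 586 and 504 CPM with Apatinib, which is 0.65 higher in log2 (FDR = 0.00847 by edgeR). IL11, a cytokine of the IL-6 family, was at 3.12, 2.75 and 1.97 CPM against 3.78, 9.77 and 4.35 CPM (1.2, FDR = 0.0454 by edgeR), and 0.66 without Apatinib replicate 2, and its call was lost without that library or any 1 of the 3 controls. HMOX1, the heme oxygenase of the oxidative stress response, was at 10.9, 13.6 and 14.4 CPM against 27.0, 16.7 and 18.9 CPM (0.69, FDR = 0.0423 by edgeR), and 0.46 without Apatinib replicate 1, and its call was lost without Apatinib replicate 1 or 3 or control replicate 1 or 2. The gelatinase MMP9 fell from 5.77, 4.62 and 4.81 CPM to 3.02, 1.69 and 2.75 CPM, a change of -1.02 in log2 (FDR = 0.0244 by edgeR). The calls of CCND1 and MMP9 were lost without control replicate 1 and without control replicate 2. With these controls summed as 1 sample, all 4 of these calls were lost: CCND1 was at 0.65 (FDR = 0.059), IL11 at 1.26 (FDR = 0.113), HMOX1 at 0.65 (FDR = 0.142) and MMP9 at -1.01 (FDR = 0.0849), and over the 9 other fits the FDR ranged from 1.04e-05 to 0.444, 3.11e-05 to 0.304, 0.00246 to 0.619 and 0.00146 to 0.239 in the same order.

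Of the other listed targets, CXCL8 and LIF were high in Apatinib replicate 2, as ATF3 was, and were named after their values were seen. CXCL8, a chemokine, was at 7.10, 8.03 and 4.86 CPM in the controls and at 1.40, 16.8 and 2.0 CPM with Apatinib. LIF, a cytokine, was at 24.4, 23.9 and 22.4 CPM in the controls and at 16.5, 45 and 13.7 CPM with Apatinib. Both were below all controls in Apatinib replicates 1 and 3 and above them in replicate 2. In 11 of the 18 tested targets, Apatinib replicate 2 was the highest of its group, against 35.9% of all genes tested. Without overlap between the groups, 9 of the 18 were higher and 2 lower, against 17.5% and 15.7% of all genes tested.

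**Figure D5:**
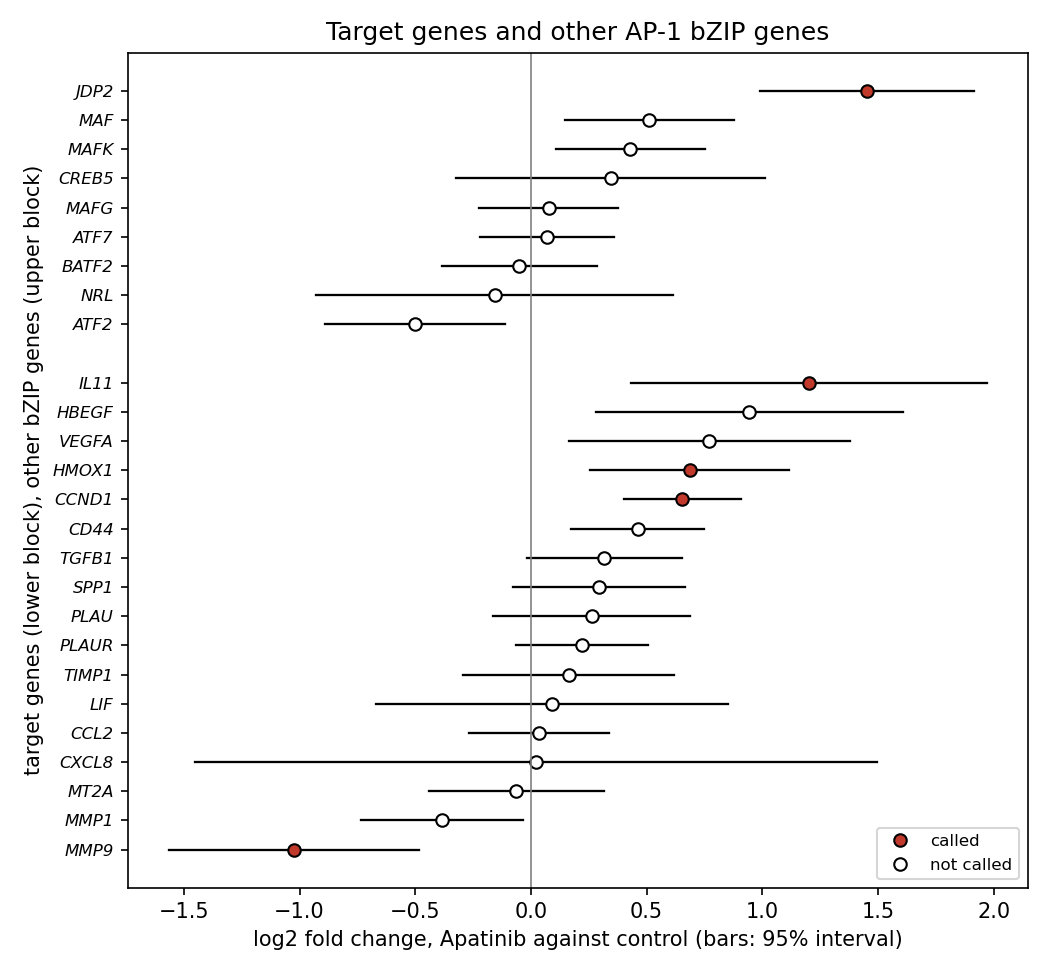
Log2 fold change, Apatinib against control, with 95% intervals, of tested other bZIP genes (upper block) and tested AP-1 target genes (lower block), filled where called. JDP2 (1.45) leads the upper block, 1 gene of each list is not shown, and MMP9 (-1.02) is the called gene to the left of 0.

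Other immediate early genes were described from a list of 21, of which 19 were tested. CCN1, CCN2, GADD45B and NR4A1 were called higher, which is 21.1% of those tested against 5.97% of all genes called higher, and none lower, while the list had a median of 0.58 in log2. CCN1 and CCN2, secreted matrix proteins that integrins bind, rose evenly in all 3 Apatinib libraries. CCN1 was at 28.2, 32.1 and 31.1 CPM in the controls and at 142, 121 and 142 CPM with Apatinib, which is 2.15 higher in log2 (SE 0.128, FDR = 3.13e-05 by edgeR). CCN2 was at 8.02, 10.1 and 7.83 CPM in the controls and at 38.1, 41.0 and 41.3 CPM with Apatinib, which is 2.22 higher in log2 (SE 0.148, FDR = 3.38e-05 by edgeR). GADD45B, a stress-response gene, had 1.40 (FDR = 0.00569 by edgeR) and lost its call with glmTreat (FDR = 0.0516). The orphan nuclear receptor NR4A1 had 0.97 (FDR = 0.0152 by edgeR). NR4A1 lost its call without Apatinib replicate 1, control replicate 1 or control replicate 2, and with these controls summed (0.94, FDR = 0.0734, in a range of 0.000756 to 0.202 over the 9 other fits).

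EGR1 and EGR3, zinc finger factors of the early response named after their values were seen, had another order of libraries than FOS. EGR1 was at 23.4, 29.1 and 19.8 CPM in the controls and at 23, 178 and 26.2 CPM with Apatinib (FDR = 0.0978 by edgeR). EGR3 was at 1.90, 2.47 and 2.06 CPM in the controls and at 1.45, 10.7 and 1.60 CPM with Apatinib (FDR = 0.26 by edgeR). Both had the pattern of ATF3, with Apatinib replicate 2 alone far above the controls. At an unadjusted p under 0.05, 11 of the 19 tested early genes were higher and 0 lower, against 15.3% of all genes in each direction. The number of early genes called ranged from 2 to 10 over the other fits, in which 0.454% to 13.8% of all genes were called, and from 3 to 6 when 1 library was left out, with 1.65% to 15.5% of all genes called.

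The 6 genes for proteins that bind AU-rich elements were all tested and none was called by edgeR. At an unadjusted p under 0.05, 0 of the 6 were higher and 1 was lower, against 15.3% of all genes in each direction. The lower gene was HNRNPD (AUF1), at -0.30 in log2 (FDR = 0.155 by edgeR). No fit with all replicates called any of the 6, DESeq2 included. ZFP36, or tristetraprolin, which degrades early transcripts, had a value of 0.25 (FDR = 0.303 by edgeR).

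Among 16289 other tested genes, those most like FOS over the 6 libraries by Pearson correlation of log2 CPM were RPS23P8 (0.998), CORO6 (0.997) and PDE4DIP (0.994). For JUN they were PSTPIP2, H1F0 and SLC1A5, with 0.9985 to 0.9996, and for ATF3 they were DTD2, CBL and ZNF79, with 0.994 to 0.996. With 6 libraries in 2 groups and this many genes, such values describe likeness of pattern only.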

How the data were processed

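RNA-seq of SW872 cells was analysed, with 3 replicates per group as the labels assign them. The authors deposited a table of raw counts for 57773 genes, which are whole and not scaled, and FPKM values of each sample. The submitters' processing notes name CASAVA, STAR 2.7.1a and hg19. The counting program, its strand setting and the annotation are not given in the sources used here. The study's methods name DESeq2 and call the replicates biological. Nothing says that the cultures were grown separately, so the spread behind the p-values may be technical. One extra FPKM column was not used (1 column).

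Counts were filtered with filterByExpr, scaled by TMM (factors 0.952 to 1.03) and tested with edgeR 4.0.16 in R 4.3.3 (quasi-likelihood F test, Benjamini-Hochberg FDR over 16290 genes; biological coefficient of variation 0.149). CPM uses these factors, and log2 CPM a prior count of 2. Every gene was fitted on the whole table. The scripts were tested on simulated data. Library totals were 17043314 to 22067558 counts, and a gene with fewer than 10 counts per library, such as FOSB in control replicates 1 and 2, is imprecise from counting error alone.

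Members and gene lists were chosen with earlier results of these data known. The text names all 10 members and, of each other list, the called genes and the 3 with the smallest p, and for FOS, JUN and ATF3 the 3 genes of highest correlation. CXCL8, LIF, EGR1, EGR3 and the marker genes were named outside this rule, and 1 gene of the bZIP list and 1 of the target list are not reported here. Alternatives were DESeq2 1.42.0, RLE size factors, no filter, at least 10 counts in every library, the replicate number as a block, glmTreat, limma 3.58.1 on log2 FPKM of genes with a mean above 0.5 (pseudocount 1 or 0.1), controls 1 and 2 summed, and each library left out. For the called genes outside the family these were chosen after seeing the data. Promoter windows come from RefSeq (GRCh38.p14) and exon structures from GENCODE 29, matched by symbol and identifier, and no coordinates of the authors' build were used.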

Additional observations from a re-analysis of the deposited data

How the results depend on the processing

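The 10 members gave 149 values under the alternatives, of which 148 were above 0 and 135 kept their direction and their side of the threshold. ATF3 reversed without Apatinib replicate 2 (-0.26). With the replicate number as a block, JUN was called (0.60), 5 members, 8 early genes and 2215 genes in all were called, ATF3 fell to 0.60 without a call, and no other member changed its call. The numbers did not pair the samples (correlations of deviations -0.259, 0.0808 and -0.22), and not every sample was closest to its own number. The number of genes called in all was 1866, and 74 with glmTreat, 796 and 810 with limma on log2(FPKM + 1) and log2(FPKM + 0.1), and 292 with controls 1 and 2 summed. Of the members, 7 were called without a filter and 2 with glmTreat. Of the targets, 1 was called with glmTreat, 3 and 2 with the FPKM fits and 1 with the summed controls, and of the early genes 10 without a filter and 2 with glmTreat. FOSL1 (0.84) and JUND (0.87) lost their call with glmTreat, and JUND with the summed controls (0.80). JUN was called by DESeq2 (0.66) and without a filter (0.66), as were ATF3 (1.08) and MAFF (0.56) without a filter. For FOS the edgeR FDR was 1.02e-43 without a filter and 2.31e-31 with the block, against 0.000315 in the main fit. ATF3 was called without a filter although only Apatinib replicate 2 lay above every control. Calls added by these fits are therefore not firmer than those of the main fit. Over the libraries left out, the genes called ranged from 275 to 2594, members from 2 to 6, other bZIP genes from 1 to 2, upstream genes from 0 to 3, targets from 1 to 7 and early genes from 3 to 6. The log2 fold change ranged from 0.73 to 0.95 for FOSL1, 0.35 to 0.83 for JUN, 0.74 to 1.01 for JUND, -0.26 to 1.49 for ATF3, 0.28 to 0.82 for BATF3 and 0.01 to 0.78 for MAFF. The filter of at least 10 counts left out FOSB, whose control counts of 6 to 10 limit the precision of its fold change. The causes of these shifts were not tested.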
